A study of Rattus norvegicus with 6 samples.

Results

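Plasminogen activation, the serpins that restrain it and the tissue factor pathway were examined through 8 genes, picked by symbol from a table of 17139 genes: Plat, Plau, Plaur, Serpine2, Anxa2, S100a10, F3 and Tfpi. They were counted in primary rat nucleus pulposus cells, taken from the soft centre of the intervertebral disc and grown in culture. One group received 10 µM bradykinin (3 libraries) and the other no treatment (control, 3 libraries). The labels name no genetic change, and strain, age and length of treatment are not given in the sources used here. The treated libraries carry the title B2R, a common short name of the bradykinin B2 receptor, but their treatment label names the peptide, and that label was followed. Whether replicates are separate animals or cultures is not stated, so any p-value reflects only how these libraries scatter, which could be technical in origin.

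The tissue-type and urokinase-type plasminogen activators cut plasminogen into plasmin, a protease that dissolves fibrin and can also degrade matrix proteins and activate other proteases. Serpins end this activity by trapping the activators, and cell surface receptors hold the activator or plasminogen where it is needed. Tissue factor starts blood coagulation at the cell surface and is held in check by tissue factor pathway inhibitor. In blood vessels bradykinin is known to make endothelial cells release tissue-type plasminogen activator.

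Levels are given as CPM, read counts scaled to the size of each library with TMM factors, and each log2 fold change, with its SE, sets bradykinin against control. CPM are not corrected for transcript length, so levels of different genes are not compared. All 8 genes passed the filter on low counts. They were picked with earlier results of this same comparison in view, so their differences are a description. No p-value of a single member is given, and nothing is read from the calls and counts given for members. The comparison addresses what bradykinin does to transcript levels in disc cells, a question the submitters tie to ageing of the cells and upkeep of the matrix.

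One treated library, bradykinin replicate 3, lay apart from the remaining 5. Spearman correlations across genes were 0.960 to 0.963 in pairs with it and 0.992 to 0.996 in the other pairs. Total counts were 12883067 to 14604917 in bradykinin libraries and 14252966 to 15462764 in controls. In the same library, genes of short genomic span were high and genes of long span were low. With genes ranked by span into 4 equal classes, its median log2 difference from the mean of the other 5 libraries was 0.35 in the shortest class and -0.44 in the longest. The part of this in the values below was not tested, and the members' fold changes are given with and without that library.

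Markers of the labelled cell type were present in part. Summed, the 12 nucleus pulposus and notochord markers analysed were at 656 to 1012 CPM with bradykinin and 819 to 828 CPM in controls. Acan and Ncam1 made up most of this sum in every library. Col2a1, the main cartilage collagen, had 2 counts or fewer in every library. Krt8 was at 0.79 to 1.76 CPM with bradykinin and 0.81 to 1.43 CPM in controls. Car12 was at 0.46 to 1.02 CPM with bradykinin and 0.45 to 0.70 CPM in controls. Cd24 was at 4.41 to 5.86 CPM with bradykinin and 4.33 to 7.44 CPM in controls. Single markers in these sums differed in opposite directions. Acan, the cartilage proteoglycan aggrecan, was at 498, 511 and 301 CPM with bradykinin and 257, 272 and 257 CPM in controls. Ncam1 was at 245, 225 and 121 CPM with bradykinin and 272, 265 and 284 CPM in controls, and Car3 was at 2.60 to 3.58 CPM with bradykinin and 7.66 to 8.49 CPM in controls. The part of these shifts in the members' values was not tested. The tendon and annulus markers, type I collagen genes included, summed to 62540 to 78662 CPM with bradykinin and 66000 to 70608 CPM in controls. Endothelial cells, a usual source of Plat and Tfpi, were nearly unmarked. Pecam1 had at most 3 counts and Kdr at most 1 in any library. The sum of the 5 endothelial markers analysed, 26.1 to 38.1 CPM with bradykinin and 22.3 to 26.1 CPM in controls, was nearly all Egfl7. Leukocyte markers summed to 9.93 to 14.2 CPM with bradykinin and 8.79 to 9.97 CPM in controls, nearly all of it Cd14, and platelet and erythroid markers each stayed under 1 CPM in sum. No marker analysed was at 0 in every library, but listed markers not found by symbol among the counted genes were left out. Those analysed were 12 of 17 for nucleus pulposus and notochord, 5 of 9 for endothelium and 4 of 9 for leukocytes. Krt18, Krt19, Tbxt and Shh were among the nucleus pulposus and notochord markers not found. The smooth muscle and pericyte markers summed to 2649 to 3355 CPM with bradykinin and 3312 to 3452 CPM in controls. Of these lists, Thbs4 was higher with bradykinin (2302 to 2938 CPM, against 1533 to 1707 CPM in controls), and Acta2 was lower (973 to 1419.6 CPM, against 1425 to 1533 CPM in controls). Acta2 in bradykinin replicate 3 was close to the lowest control. Other smooth muscle markers went both ways. Des was at 34.9, 34.1 and 46.1 CPM with bradykinin and 24.8 to 25.4 CPM in controls. Myh11 was at 47.3 to 58.6 CPM with bradykinin and 69.9 to 73.6 CPM in controls. Tagln and Cspg4 overlapped between groups. In such bulk libraries, fewer cells of a type and less RNA per cell cannot be told apart.

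The group split into genes that stayed near their control level and genes that lay above it in bradykinin libraries. Both activators and Tfpi were close to control. Serpine2, Anxa2, S100a10 and F3 were higher in all 3 bradykinin libraries than in any control, and Plaur was higher in 2 of 3. With all 6 libraries, edgeR's quasi-likelihood test called none of the 8 members, and it called 0% of the 12413 genes tested. At an unadjusted p under 0.05 stood 3 members, as did 849 of all genes. DESeq2 called 0 members and 0.354% of genes, and limma-voom 0 members and 0 genes. Without bradykinin replicate 3, the members called higher were Serpine2, Anxa2 and S100a10, against a background of 1.95% of 12536 genes called higher (3.1% in either direction), and 0 members were called lower against 1.15% of genes. Nothing is read from these counts, since the same libraries were in view when the genes were picked.

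**Figure D1:**
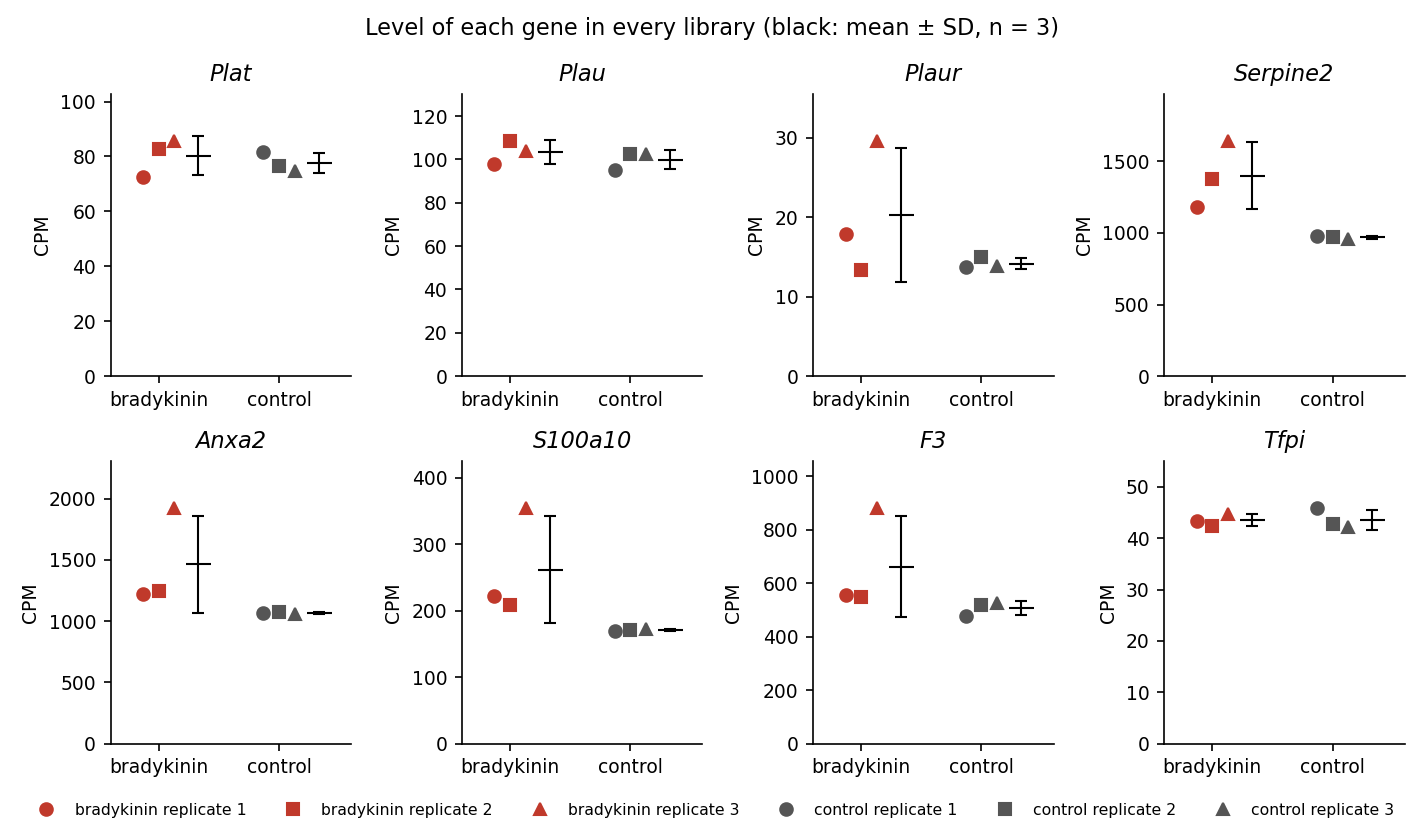
CPM (linear axis from 0) of each gene in the 3 bradykinin and 3 control libraries, with the mean ± SD beside the points. Plat, Plau, Plaur and Tfpi overlap between groups. Plaur, Serpine2, Anxa2, S100a10 and F3 are highest in bradykinin replicate 3, as is Plat by little.

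Sequences just upstream of 4 members are shown. Plaur, Anxa2 and Serpine2 had a higher mean with bradykinin, and Plau is an activator that stayed near control. The mean of Plaur was raised most by bradykinin replicate 3 (29.6 CPM), while replicate 2 (13.3 CPM) was below every control. Windows matched 5 of the 8 members, all but F3, Plat and S100a10, and those of Tfpi lay inside the gene and are not printed. The sequences are RefSeq promoter windows of the assembly GRCr8, a build other than that of the counts, cut to the bases before the outermost annotated start of the gene. Plaur lies at chr1:89181113-89181362 on the plus strand and Anxa2 at chr8:78986002-78986251 on the plus strand. Serpine2 lies at chr9:88637253-88637452 and Plau at chr15:3511988-3512237, both on the minus strand. Each reads 5′ to 3′ on the strand of its gene. Capitals mark matches, on either strand, to the AP-1 motif TGANTCA, the GC box GGGCGG and the TATA box TATAAA, with the cyclic AMP response element TGACGTCA also searched and not matched.
Plaur: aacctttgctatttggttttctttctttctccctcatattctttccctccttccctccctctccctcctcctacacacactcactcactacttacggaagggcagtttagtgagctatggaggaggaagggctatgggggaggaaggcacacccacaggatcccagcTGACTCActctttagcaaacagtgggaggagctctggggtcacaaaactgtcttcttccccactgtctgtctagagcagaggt
Anxa2: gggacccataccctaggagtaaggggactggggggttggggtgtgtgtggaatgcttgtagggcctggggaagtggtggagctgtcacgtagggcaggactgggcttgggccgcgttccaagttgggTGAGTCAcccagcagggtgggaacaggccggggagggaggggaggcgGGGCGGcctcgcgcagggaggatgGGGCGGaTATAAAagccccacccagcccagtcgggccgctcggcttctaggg
Serpine2: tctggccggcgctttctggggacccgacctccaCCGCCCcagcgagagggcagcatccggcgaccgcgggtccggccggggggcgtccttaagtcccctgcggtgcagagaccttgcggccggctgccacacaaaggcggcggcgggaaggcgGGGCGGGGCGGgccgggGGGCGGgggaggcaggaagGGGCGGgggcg
Plau: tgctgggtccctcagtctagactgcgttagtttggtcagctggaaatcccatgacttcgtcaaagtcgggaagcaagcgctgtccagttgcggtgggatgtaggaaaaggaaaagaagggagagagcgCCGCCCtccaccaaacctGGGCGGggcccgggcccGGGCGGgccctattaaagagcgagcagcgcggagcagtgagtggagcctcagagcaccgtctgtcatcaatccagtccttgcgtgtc

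The windows of Plaur and Anxa2 each held 1 AP-1 match, a motif found in 6.34% of 33469 windows of the same 250 bases. Anxa2 also held 2 GC boxes and 1 TATA box, motifs present in 30.5% and 12.9% of such windows. Serpine2, in a window of 200 bases, held 5 GC boxes, of which a pair overlap by sharing bases, against 24.2% of windows with any. Like Plau, Serpine2 held no AP-1 match, a motif found in 5.22% of windows of 200 bases. Plau held 3 GC boxes and no AP-1 match, and Plaur held no GC box. GC content was 78.5% for Serpine2, 67.2% for Anxa2, 60% for Plau and 51.2% for Plaur, where the median window had 51% (200 bases) or 51.2% (250 bases). A match describes the letters alone.

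Plat encodes tissue-type plasminogen activator, a secreted serine protease that is most active on fibrin. It was at 72.4, 82.8 and 85.8 CPM in treated replicates 1, 2 and 3, against 81.5, 76.5 and 74.7 CPM in controls. Its lowest and its highest value both belonged to bradykinin libraries, so the control values lay inside the treated range. Its log2 fold change was 0.05 ± 0.10, and 0.00072 ± 0.07 without bradykinin replicate 3.

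Plau encodes urokinase-type plasminogen activator, which acts mainly when bound to its receptor on the cell surface. It stood at 97.7, 108.7 and 104.1 CPM with bradykinin and at 95.0, 102.4 and 102.3 CPM in controls. The groups overlapped, and bradykinin replicate 3 did not stand out. Log2 fold changes were 0.05 ± 0.09 in 6 libraries and 0.05 ± 0.06 in 5.

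Plaur encodes the urokinase receptor, a lipid-anchored protein that concentrates urokinase at the cell border. It was at 17.9, 13.3 and 29.6 CPM in bradykinin libraries 1, 2 and 3, beside 13.7, 15.0 and 13.8 CPM in controls. Bradykinin replicate 2 was below every control, and replicate 3 was at 2.09 times the control mean. Its log2 fold change was 0.52 ± 0.27 in 6 libraries and 0.14 ± 0.13 without replicate 3. Of the 8 genes it was the most thinly counted, with 183 to 455 counts per library with bradykinin and 204 to 213 in controls.

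Serpine2 encodes protease nexin-1, a secreted serpin that inhibits thrombin, urokinase and tissue-type plasminogen activator. It was at 1179, 1376 and 1644 CPM in treated replicates 1, 2 and 3, against 978, 972 and 959 CPM in controls. All treated libraries lay above all controls, at 1.22, 1.42 and 1.70 times the control mean. Every bradykinin library was above every control in 4 of the 8 members and in 8.84% of all tested genes, and below every control in 0 members and 8.71% of genes, from which nothing is read for the same reason. The log2 fold change of Serpine2 was 0.53 ± 0.13, and 0.40 ± 0.05 without bradykinin replicate 3. With a further library left out of the 5, it ranged from 0.28 to 0.51. The lowest of these values came without bradykinin replicate 2 and the highest without replicate 1. Its upstream window held 5 GC boxes, beside 3 in that of Plau, 2 in that of Anxa2 and 0 in that of Plaur. A link between these motifs and transcript levels was not tested.

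Anxa2 encodes annexin A2, a calcium-dependent membrane-binding protein, and S100a10 its partner p11. The pair form a complex at the cell surface that binds plasminogen and tissue-type activator. Anxa2 was at 1221, 1245 and 1922 CPM with bradykinin and at 1067, 1077 and 1058 CPM in controls. Replicates 1 and 2 were 1.14 and 1.17 times the control mean, and replicate 3 was 1.80 times. Its log2 fold change was 0.45 ± 0.18, and less than that, 0.21 ± 0.04, without replicate 3. Leaving out a further library of the 5 gave 0.19 to 0.22, and Anxa2 was not called where that library was a control.

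S100a10 was at 222, 209 and 354 CPM in treated replicates 1, 2 and 3, against 170, 171 and 172 CPM in controls. The controls were nearly equal, and the treated libraries were 1.3004, 1.222 and 2.073 times their mean. For S100a10 the log2 fold change was 0.62 ± 0.20 in 6 libraries and 0.33 ± 0.05 without bradykinin replicate 3. Leaving out a further library of the 5 gave 0.29 to 0.38.

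F3 encodes tissue factor, the membrane receptor of coagulation factor VII. It was at 556, 550 and 881 CPM with bradykinin and at 477, 517 and 526 CPM in controls. Bradykinin replicates 1 and 2 exceeded the highest control by little, while replicate 3 was at 1.74 times the control mean. Its log2 fold change was 0.39 ± 0.19, and 0.13 ± 0.05 without replicate 3, where F3 was not called. Tfpi, which encodes the inhibitor of the tissue factor complex, was at 43.4, 42.4 and 44.8 CPM with bradykinin and 45.8, 42.7 and 42.2 CPM in controls. The treated values lay inside the control range, with log2 fold changes of -0.0017 ± 0.09 and -0.02 ± 0.07 in 6 and 5 libraries.

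**Figure D2:**
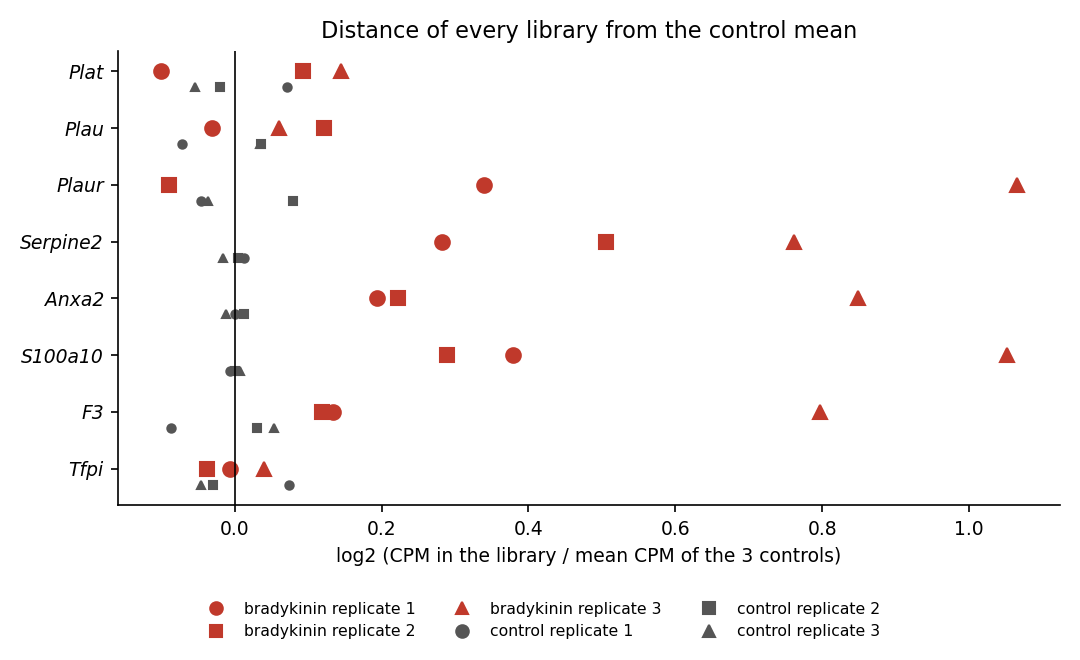
Each point is a library's log2 CPM minus the log2 of the control mean, with the 3 bradykinin libraries (red) above the 3 controls (grey) of each gene. Bradykinin replicate 3 is farthest right for Plaur, Serpine2, Anxa2, S100a10 and F3 and, by little, for Plat. Its points for Plau and Tfpi lie among the others.

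Bradykinin replicate 3 differed from the mean of replicates 1 and 2 by an amount that varied between genes. Its level over the mean of replicates 1 and 2 was 1.90-fold for Plaur, 1.64-fold for S100a10, 1.59-fold for F3 and 1.56-fold for Anxa2. It was 1.29-fold for Serpine2, 1.11-fold for Plat, 1.04-fold for Tfpi and 1.01-fold for Plau. Plaur, S100a10, F3 and Anxa2 were each at least 1.5 times as high in this library as in any other, which held for 4.89% of all tested genes. The limit of 1.5 was set after the values were seen. By genomic span S100a10 and Plau belong to the shortest of the 4 classes, Plaur and F3 to the second, Anxa2 and Tfpi to the third, and Serpine2 and Plat to the longest. In the shortest class the ratio was 1.64-fold for S100a10 and 1.01-fold for Plau. Whether span accounts for any of these ratios was not tested.

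**Figure D3:**
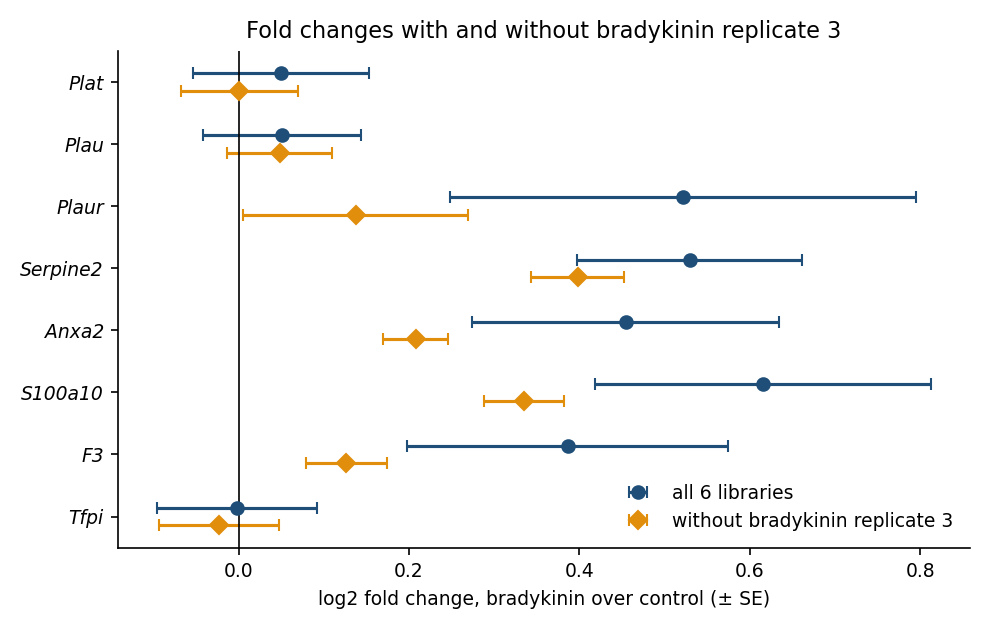
Log2 fold change ± SE of each gene from edgeR, with all 6 libraries (blue) and without bradykinin replicate 3 (orange). Plaur, Anxa2, S100a10 and F3 are smaller without it, by more than Serpine2, which is at 0.40 in 5 libraries and at 0.53 in 6.

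Ratios of 2 genes within a library do not depend on how libraries are scaled. Their absolute value also reflects transcript length, so only differences between libraries are read. The log2 ratio of Plat to its inhibitor Serpine2 was -4.03, -4.06 and -4.26 in bradykinin replicates 1, 2 and 3, against -3.58, -3.67 and -3.68 in controls. It was lower in every treated library, by 0.47 on average, and bradykinin replicates 1 and 2 alone were already below all controls. Plau over Serpine2 was -3.59, -3.66 and -3.98 with bradykinin and -3.36, -3.25 and -3.23 in controls, without overlap. Both ratios share Serpine2, and both activators were near control, so the 2 ratios mostly restate the difference in Serpine2.

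Receptor, coagulation and annexin pairs were less even. Plau over Plaur was 2.45, 3.03 and 1.81 with bradykinin and 2.79, 2.78 and 2.89 in controls, so the treated libraries lay on both sides of the controls. F3 over Tfpi was 3.68, 3.70 and 4.30 with bradykinin and 3.38, 3.60 and 3.64 in controls. It was higher in all treated libraries, though replicates 1 and 2 exceeded the highest control by little. Anxa2 over S100a10 was 2.46, 2.57 and 2.44 with bradykinin and 2.65, 2.65 and 2.62 in controls. S100a10 was thus higher relative to its partner in each treated library, by 0.15 log2 units on average, and for this pair replicate 3 lay beside replicate 1.

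**Figure D4:**
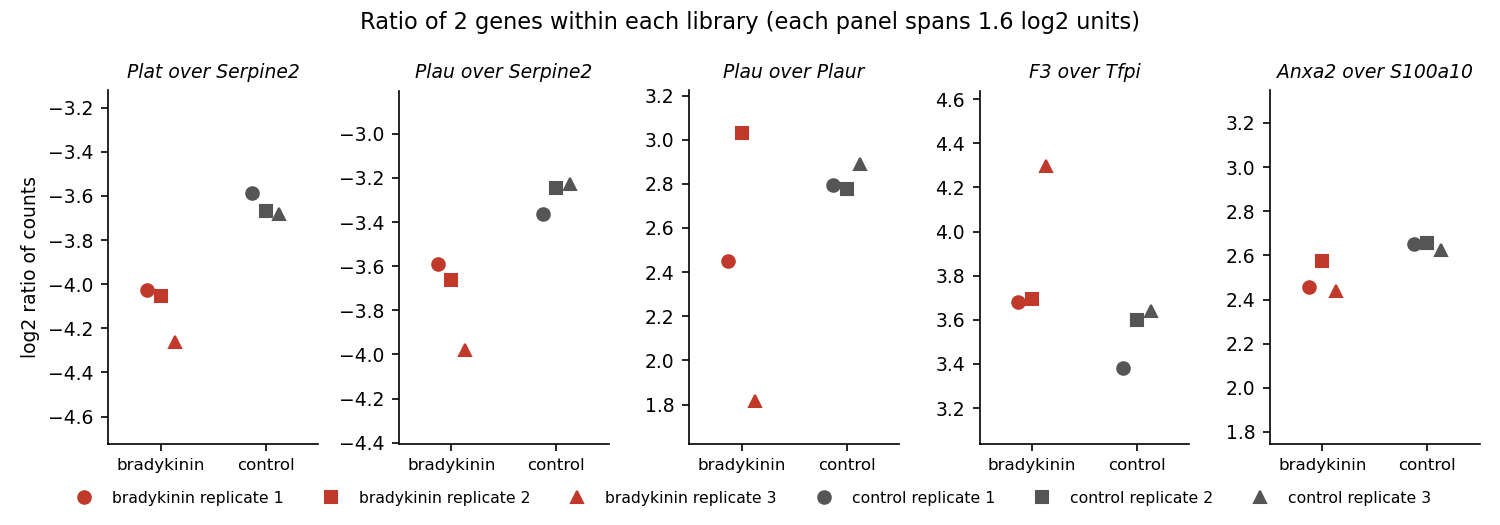
Log2 ratio of the counts of 2 genes in each library, with bradykinin left and control right and every axis 1.6 log2 units high. The ratios of both activators to Serpine2 and of Anxa2 to S100a10 are lower in all bradykinin libraries, while Plau over Plaur overlaps.

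The plasminogen system was further represented by a list of 25 other genes, of which 14 were tested. With 6 libraries edgeR, DESeq2 and limma-voom called 0 of them. At an unadjusted p under 0.05 in edgeR stood 0, beside 849 of all 12413 genes. Of the 14 log2 fold changes 4 were positive, with a median of -0.09 beside 0.0082 over all genes. Without bradykinin replicate 3, edgeR called 0 of 15 higher and 0 lower, beside 1.95% and 1.15% of all genes. The median was 0.02 beside 3.7e-05 over all genes.

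Eno1, a glycolytic enzyme that also binds plasminogen at the cell surface, averaged 2012 ± 368 CPM with bradykinin and 1675 ± 40.6 CPM in controls (SD, n = 3 each), with 2433 CPM in bradykinin replicate 3. Its log2 fold change was 0.26 ± 0.14 in 6 libraries, where the test was not passed (edgeR adjusted p = 0.737), and 0.10 ± 0.04 without that library. Itga3, the integrin alpha 3 subunit and a known partner of the urokinase receptor, averaged 603 ± 67.7 CPM with bradykinin and 708 ± 40.9 CPM in controls, which gave -0.23 ± 0.11 on the log2 scale (edgeR adjusted p = 0.737), and -0.14 ± 0.05 without bradykinin replicate 3. Itgb1, the integrin beta 1 subunit, was at 2604, 2564 and 2500.2 CPM in treated replicates 1, 2 and 3, against 2780.4, 2739.7 and 2742 CPM in controls. All treated libraries of Itgb1 lay below all controls, with log2 fold changes of -0.11 ± 0.09 in 6 libraries (edgeR adjusted p = 0.744) and -0.09 ± 0.04 in 5. Plasminogen itself was barely detected, with Plg at 3, 0 and 2 counts in bradykinin libraries and 1, 2 and 0 in controls. Vtn, which encodes the adhesion protein vitronectin, had 0 counts in all 6 libraries, which allows up to 3 counts in each.

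Of 35 other coagulation genes, 16 were tested. None was called with 6 libraries by edgeR, DESeq2 or limma-voom. In edgeR 3 stood at an unadjusted p under 0.05, beside 849 of all 12413 genes. The median log2 fold change was 0.03 (0.08 in 5 libraries). Without bradykinin replicate 3, 0 were called higher and 1 lower, beside 1.95% and 1.15% of all genes. Gas6, a vitamin K-dependent ligand of the TAM receptor kinases, was at 151, 181 and 182 CPM with bradykinin and at 246, 227 and 213 CPM in controls. All treated libraries were below all controls, replicate 3 included. The log2 fold change of Gas6 was -0.42 ± 0.11 in 6 libraries (edgeR adjusted p = 0.634) and -0.46 ± 0.07 in 5 (edgeR adjusted p = 0.0044), and it was called in 5 of 5 fits with a further library left out. In 2 of these 5 fits, for Gas6 as for every gene so treated, a single bradykinin library remains, which is assumed to vary as the controls do.

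None of the receptors of coagulation proteases tested passed. F2r, the thrombin receptor PAR1, was at 269, 262 and 232 CPM with bradykinin and 252, 250.2 and 249 CPM in controls (log2 fold change 0.02 ± 0.09). The value of F2r without bradykinin replicate 3 was 0.09 ± 0.04, with both remaining treated libraries above all controls. F2rl1, which encodes the protease-activated receptor PAR2, was at 10.40, 9.953 and 10.998 CPM with bradykinin and 7.21, 7.72 and 8.79 CPM in controls, without overlap. Its log2 fold change was 0.40 ± 0.14 (edgeR adjusted p = 0.714), and 0.36 ± 0.14 without bradykinin replicate 3. Procr, the receptor of protein C, averaged 13.7 ± 1.33 CPM with bradykinin and 10.8 ± 0.779 CPM in controls (SD, n = 3 each; 0.34 ± 0.14, edgeR adjusted p = 0.714). Thbd, which encodes thrombomodulin, was at 3.94, 3.41 and 1.56 CPM with bradykinin and 2.92, 3.09 and 3.72 CPM in controls (log2 fold change -0.14 ± 0.34). Without bradykinin replicate 3 the direction of Thbd turned, at 0.18 ± 0.22. Thrombin itself had 0 counts of F2 in every bradykinin library and 1, 0 and 0 counts in controls.

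Among 8 tested serpins of 26 listed, none was called with 6 libraries by edgeR, DESeq2 or limma-voom. In edgeR 3 stood at an unadjusted p under 0.05, beside 849 of all 12413 genes. Without bradykinin replicate 3 the test called 1 higher and 1 lower, beside 1.95% and 1.15% of all genes. Median log2 fold changes were 0.05 in 6 libraries and -0.03 in 5. Serpinb6a, an intracellular serpin, was at 132, 133 and 222 CPM with bradykinin and 108, 114 and 106 CPM in controls (0.57 ± 0.20 in 6 libraries, edgeR adjusted p = 0.714). It rose by 0.28 ± 0.05 without replicate 3 (edgeR adjusted p = 0.0114), a call lost when control replicate 1 or 3 was left out as well. Serpinb9, the inhibitor of granzyme B, was at 40.7, 35.1 and 43.7 CPM with bradykinin and 44.4, 53.1 and 54.8 CPM in controls (-0.35 ± 0.13 in 6 libraries, edgeR adjusted p = 0.714). Its value was -0.42 ± 0.10 without replicate 3 (edgeR adjusted p = 0.0331), and the call was lost without bradykinin replicate 2, control replicate 2 or control replicate 3. Serpinb1a, an inhibitor of neutrophil proteases, was at 2.75 ± 0.773 CPM with bradykinin, against 1.44 ± 0.679 CPM in controls (SD, n = 3 each; 0.94 ± 0.40, edgeR adjusted p = 0.727). Clade B serpins have close relatives in the rat, among which the counting shares out reads by estimate, so these values are uncertain.

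The families of Anxa2 and S100a10 gave 16 tested genes of 26 listed. None was called with 6 libraries by edgeR, DESeq2 or limma-voom. In edgeR 2 stood at an unadjusted p under 0.05, beside 849 of all 12413 genes. The median log2 fold change of 0.18 in 6 libraries was -0.0047 without bradykinin replicate 3. In those 5 libraries 1 was called higher and 2 lower, beside 1.95% and 1.15% of all genes. Anxa5, which encodes an anticoagulant protein that binds phosphatidylserine, was at 376, 403 and 545 CPM with bradykinin and 322, 330 and 317 CPM in controls. It lay above all controls in each treated library, with log2 fold changes of 0.45 ± 0.15 (edgeR adjusted p = 0.707) and, without replicate 3, 0.27 ± 0.05 (edgeR adjusted p = 0.0066), called in 5 of 5 fits with a further library left out, 2 of them with a single bradykinin library. S100b, a calcium-binding protein of glia and chondrocytes, had log2 fold changes of -0.33 ± 0.19 and -0.53 ± 0.12 (edgeR adjusted p = 0.0249 in 5 libraries), and Anxa3 -0.07 ± 0.13 and -0.22 ± 0.05 (edgeR adjusted p = 0.042 in 5 libraries). The call of Anxa3 was lost in all 5 fits that left out a further library and that of S100b in 4 of them. Anxa8 (0.36 ± 0.14, edgeR adjusted p = 0.714) and S100a3 (1.03 ± 0.46, edgeR adjusted p = 0.737, on 10 to 16 counts with bradykinin and 3 to 11 in controls) did not pass. Any reads shared among S100 genes would make their values uncertain too, S100a10 included, which was not tested.

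**Figure D5:**
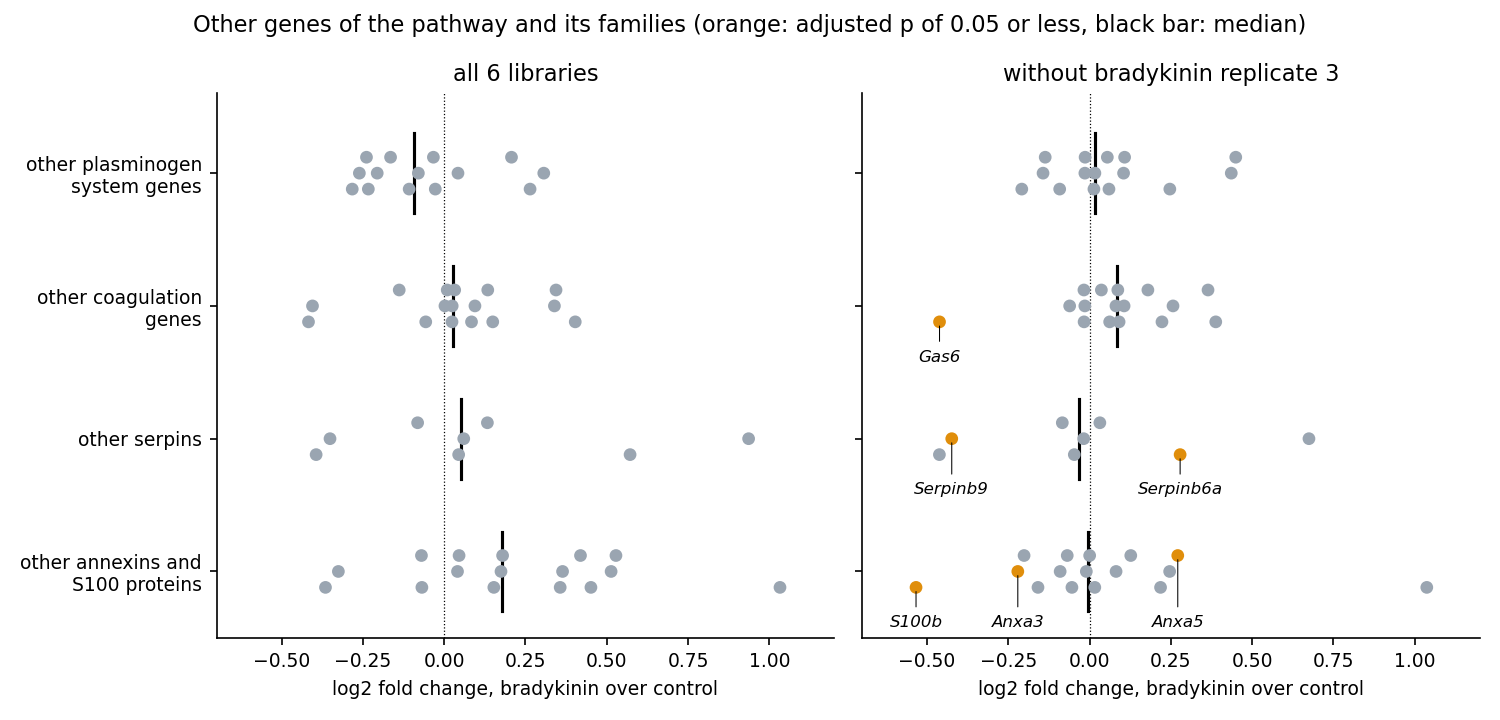
Log2 fold change of each tested gene in 4 lists, with all 6 libraries (left) and without bradykinin replicate 3 (right), where orange marks edgeR adjusted p of 0.05 or less and the black bar the median. Serpinb6a and Anxa5 lie on the higher side and Gas6, Serpinb9, S100b and Anxa3 on the lower side in the right panel, and no gene is orange in the left panel.

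Genes whose pattern over the 6 libraries was most like that of a member were looked up for the 3 members of widest range, Plaur, S100a10 and F3, among 9961 other genes. Likeness was the root mean square distance between log2 CPM values centred on each gene's own mean. These 3 members owe their wide range mainly to bradykinin replicate 3, so the genes closest to them share that high value by this choice. Each gene named below was highest in that library, and no shared role is read from the likeness. Closest to S100a10 were Pcna, the replication clamp (0.035), Cdk1, the mitotic kinase (0.046), and Serpinb6a (0.049). Pcna was at 99.8, 96.6 and 163 CPM with bradykinin and 78.4, 82.1 and 82.4 CPM in controls, so it too was highest in replicate 3. Closest to F3 were Mad2l1bp (0.021), Anp32b (0.036) and Tomm20, a mitochondrial import receptor (0.037). Closest to Plaur were Snrpd2 and Bud31, both of the splicing machinery (0.073 and 0.075), and Tmem100 (0.075).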

How the data were processed

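Primary rat nucleus pulposus cells, with or without bradykinin, gave 6 libraries of polyadenylated RNA. The values are raw counts, deposited as whole numbers for each Ensembl gene and library. Build Rnor_6.0 and the programs RSEM 1.3.3, HISAT2 2.2.1, fastp 0.23.2, DESeq2 1.34.0, Bowtie2 2.4.5 and SAMtools are listed per the submitters' processing notes, and the design text names RSEM as the tool that quantified genes. It shares reads among similar genes by estimate. How its estimates became whole numbers, and whether the kit is stranded, was not given in the labels.

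Symbols came from the table's Entrez identifiers through a RefSeq gene table (GRCr8), which named 15073 of 17139 genes and whose spans served only to rank genes (92.3% of tested genes). The 8 members each matched 1 row. RefSeq promoter windows were found for 5 members.

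The groups were tested in edgeR 4.0.16 under R 4.3.3: filterByExpr, TMM, quasi-likelihood F test (two-sided), Benjamini-Hochberg over 12413 genes, called at an adjusted p of 0.05 or less. SE is the log2 fold change divided by the root of F. The script was checked on simulated data. Alternatives were RLE factors, library totals, DESeq2 1.42.0, limma-voom 3.58.1, other filters, each library left out and a replicate block. Floors for counts of 0 cover counting error only. The members, the lists of other genes and the use of 5 libraries were chosen with earlier results of these data known. Named from each list are the 3 genes of smallest p, those called in 5 libraries, and Plg, F2r, F2rl1 and Thbd. One gene of the plasminogen list is not reported here, and the list's counts and medians are without it. Vtn, F2, and the genes of the closing section were named after their values were seen.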

Additional observations from a re-analysis of the deposited data

How the results depend on the processing

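The number of genes called with 6 libraries was 44 with DESeq2 and 0 under a minimum of 1 CPM in 3 libraries, no minimum, limma-voom, RLE factors, library totals and the replicate block. With each library left out in turn it was 0 to 388, the highest without bradykinin replicate 3. Called members of the lists ranged, over the same fits, from 0 to 1 (coagulation), 0 to 2 (serpins) and 0 to 3 (annexins and S100 proteins), again highest without that library, and were 0 in each fit for the plasminogen system; the cause was not tested. Each ratio kept its direction with a count of 1 added. Without bradykinin replicate 3, Plaur was at 0.14 (0.52 with 6 libraries), F3 at 0.13 (0.39) and Anxa2 at 0.21 (0.45). The sign of Tfpi, near 0, varied. Values with each library left out spanned 0.40 to 0.64 for Serpine2, 0.33 to 0.75 for S100a10, 0.21 to 0.57 for Anxa2, 0.13 to 0.50 for F3 and 0.14 to 0.75 for Plaur. With a further library left out of the 5, Plaur ranged from -0.09 to 0.34, Plat from -0.10 to 0.09 and Plau from -0.03 to 0.12, so their direction depended on the libraries used.

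With the replicate number as a block, 0 genes were called (591 at an unadjusted p under 0.05), and log2 fold changes were 0.52 for Serpine2, 0.42 for Anxa2 and 0.35 for F3. Same-numbered libraries shared only a number: their deviations from the group means correlated at -0.09, -0.02 and -0.05, and 0 of 3 bradykinin libraries correlated best with the control of its own number.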

Other observations

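Further genes of these families, chosen after their values were seen, were also apart in bradykinin replicate 3. S100a6 was at 385, 371 and 773 CPM in treated replicates 1, 2 and 3, beside 383, 348 and 340.2 CPM in controls. S100a4 was at 351, 347 and 584 CPM with bradykinin and 333, 306 and 319 CPM in controls, and S100a11 at 113, 96.9 and 198 CPM with bradykinin and 91.0, 113 and 112 CPM in controls. Without that library their log2 fold changes were 0.08 ± 0.05, 0.13 ± 0.05 and -0.0099 ± 0.09. All 3 are of short span.

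Lrp1 and Ahnak, both of long span and likewise chosen after their values were seen, lay the other way. Lrp1, a scavenger receptor that clears complexes of activators with serpins, was at 3993, 4457 and 1518 CPM with bradykinin and 3972, 3865 and 3925 CPM in controls. Ahnak, a giant scaffold protein bound by the complex of annexin A2 and p11, was at 2724, 2681 and 890 CPM with bradykinin and 2737, 2693 and 2677 CPM in controls. Their log2 fold changes without that library were 0.11 ± 0.05 and 0.00039 ± 0.04. Genes of the longest class did not all lie low in replicate 3. Set against the mean of replicates 1 and 2, Serpinb6a of that class was 1.68-fold there, Serpine2 1.29-fold and Plat 1.11-fold. Igf2r and Itgav, of the same class, were 0.48-fold and 0.57-fold. Whether span accounts for any of these levels was not tested.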
